A study of Oryza sativa Japonica Group with 9 samples.

Results

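Genes for metal, nutrient, sugar and water transporters were examined in the rice egg cell before and shortly after fertilization. A gene was taken where a probe set of the array pairs with it alone and its symbol or a synonym begins with the name of a YSL, ZIP, IRT, NRAMP, HMA, NRT, AMT, PHT, PT, HAK, HKT, SWEET, SUT, MST, PIP, TIP, NIP or AQP transporter, and each gene was read by its brightest probe set. This gave 122 of the 17905 genes with such a probe set. Of these, 5 carry a shared name (the lipid kinase PIP5K, the growth-regulating factor PT2, the basic helix-loop-helix factor TIP2, the acyltransferase PHT1, and PHT3, whose names do not settle what it encodes) and were set aside, which left 117: 34 metal, 42 nutrient, 18 sugar and 23 water transporter genes. Wild-type rice (Oryza sativa Japonica group) of the cultivar Katy came from a greenhouse, and egg cells were dissected without enzymes from florets at anthesis (0 hours after pollination), at 1 to 1.5 hours after pollination (called fertilized eggs below) and at 2.5 to 3 hours (zygotes). Each stage has 3 biological replicates of about 100 pooled cells, each hybridised to 1 Affymetrix rice array after 2 rounds of amplification from an estimated 2.5 ng of RNA. The labels contradict themselves in 1 respect: a description field speaks of seedlings, pollen and sperm cells, and the stages used here are those of the titles, characteristics and series text. No gene of the list of egg cell markers (EC1, ECA1, DD45) was found among the named genes of the array. Of the sperm markers (GEX2, GCS1, HAP2, DUO1) only HAP2A and HAP2B matched by name, and they were removed as unrelated. The cell identity thus could not be checked on its defining genes.

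Membrane transporters set what a plant cell takes up and what it passes to its neighbours. YSL proteins carry metals bound to nicotianamine or to phytosiderophores, ZIP, IRT and NRAMP proteins carry metal ions into the cytosol, HMA proteins pump them, HAK and HKT proteins carry potassium and sodium, and NRT, AMT and PHT proteins carry nitrate, ammonium and phosphate. SWEET proteins let sugars pass along their gradient, SUT and MST proteins carry sucrose or monosaccharides together with protons, and PIP, TIP and NIP proteins are aquaporins of the plasma membrane, of the vacuole and of the group that also passes small solutes such as silicic acid.

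The arrays were not equally alike. The median signal of rice probe sets ran from 36.5 to 50.9 for egg cells, from 47.3 to 95.4 for fertilized eggs and from 54.0 to 218 for zygotes, the highest value being that of zygote replicate 2, whose median correlation with the other arrays was 0.684 against 0.843 to 0.916 for the rest. Signals of actin, cyclophilin and GAPDH at the 3′ end were divided by those at the 5′ end, a measure of how far RNA or its copies are shortened, and the log2 of this ratio was 6.0 to 6.46 for egg cells, 6.32 to 8.62 for fertilized eggs and 5.93 to 8.15 for zygotes. The ratio of the poly-A spike probe sets to the hybridization spike probe sets was lower on all egg arrays (log2 -4.60 to -3.75) than on all others (-1.45 to -0.65), so it cannot be told apart from the step between egg cells and later stages. The same held for the ratio over all spike probe sets, at log2 -4.08 to -3.18 on egg arrays and -1.87 to 0.50 on all others. Summed signals of the endosperm marker list (10 genes) were 11044 to 19472 for egg cells, 15942 to 43202 for fertilized eggs and 11444 to 25348 for zygotes. Those of the ovule wall and nucellus list (8 genes) were 22499 to 32316, 20347 to 24253 and 18883 to 30912, those of the photosynthetic list (10 genes) 18084 to 26814, 17004 to 24800 and 5048 to 18710, and those of the pollen and anther list (7 genes) 4805 to 5942, 7321 to 9573 and 3787 to 5683. No gene of these lists passed the test between stages. Arrays are scaled to a common mean, so less of a transcript per cell and more of all others cannot be told apart, and what these measures contribute to the results below was not tested unless a value is given.

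Of the 117 genes, 82 had a mean log2 signal at or above the median of all rice probe sets, a floor that corresponds to a signal of 49.7, and were tested, against 85.7% of all genes. The tested genes comprised 25 metal, 26 nutrient, 14 sugar and 17 water transporter genes. A probe set's signal depends on its probes as well as on the transcript, so signals are given as brightness and order no genes by expression. The median brightness was 151 over the transporter genes and 577 over all genes, and 27 transporter genes exceeded a signal of 1000, where 38.3% of all genes did. Signals over 10000 were reached by HAK5, SWEET11, SWEET4 and TIP1-1. All 6 NRAMP and all 4 SUT genes lay above the floor, as did 12 of 15 YSL, 9 of 12 SWEET, 8 of 10 PIP, 7 of 8 TIP and 16 of 22 HAK genes. By contrast neither IRT gene nor HKT1-5 did, and only 4 of 9 PHT, 5 of 8 AMT and 2 of 5 NIP genes did. The 35 genes below the floor had mean signals of 13.7 to 49.1, and 19 of them were brightest on zygote replicate 2, the array with the highest median.

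**Figure D1:**
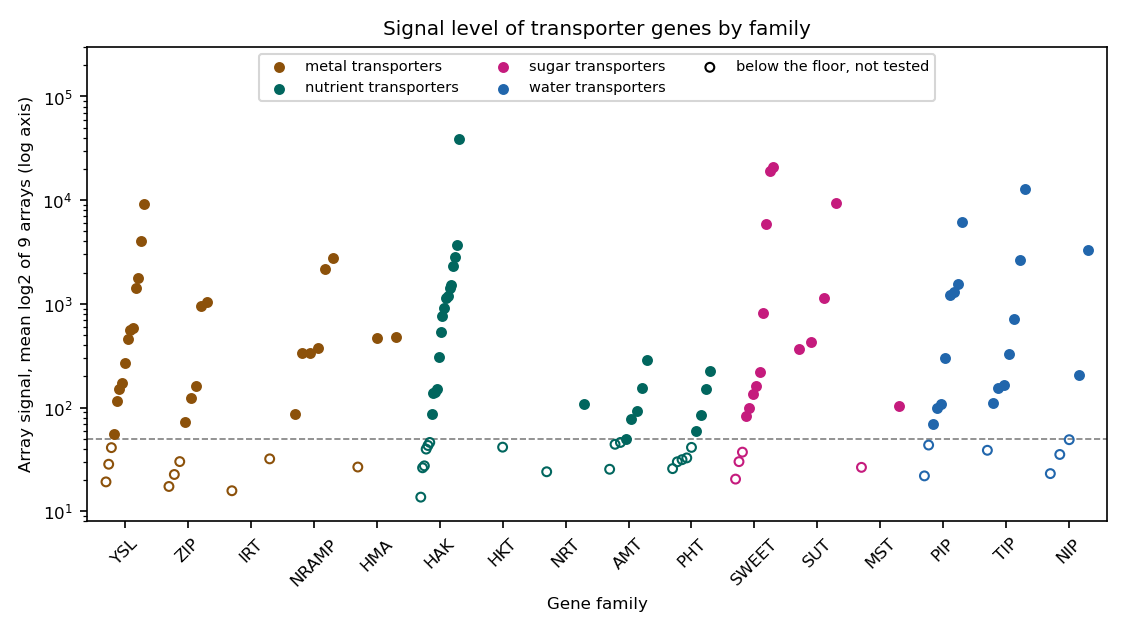
Each point is 1 of the 117 transporter genes, placed by family along the horizontal axis and by its array signal (mean log2 signal of the 9 arrays, shown on a log axis) along the vertical one. Filled points lie at or above the floor of 49.7 (dashed line) and were tested, open points lie below it, and HAK5, SWEET11, SWEET4 and TIP1-1 stand above 10000.

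None of the 82 genes passed the test, limma's moderated test with a Benjamini-Hochberg adjusted p under 0.05 over 28597 probe sets, in any comparison. Of all probe sets tested, 0.0629% passed over the 3 stages, 0.042% for fertilized egg minus egg, 0% for zygote minus fertilized egg and 0.0699% for zygote minus egg. Calls were thus rare over the whole array. An unadjusted p under 0.05 was found for 9 transporter genes for fertilized egg minus egg (8.9% of all probe sets), for 10 for zygote minus fertilized egg (10.6%) and for 12 for zygote minus egg (16%). With array quality weights 4 transporter genes passed for fertilized egg minus egg (of 1248 probe sets in all), 0 for zygote minus fertilized egg (of 0) and 3 for zygote minus egg (of 568), and they are named below. With the ratio over all spike probe sets as a covariate, an alternative added after seeing the data, 7 passed for fertilized egg minus egg (YSL7, HAK15, SUT5, SWEET5, SWEET2A, PIP1-1 and TIP2-1), 4 for zygote minus fertilized egg (YSL7, YSL12, SWEET5 and TIP2-1) and 6 for zygote minus egg (YSL7, HAK15, HAK25, SWEET5, SWEET2A and PIP1-1). For zygote minus egg that fit gave 5.27 for YSL7 and 5.14 for SWEET5, whereas the fit reported put both lower in zygotes than in egg cells. Changes from egg cells under this covariate cannot be told apart from the split of that ratio between egg arrays and all others. All other values are given as measured, with log2 changes from log2(signal + 15) ± standard error (SE, 3 arrays a stage) and adjusted p.

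The 3 arrays of one stage lay wholly above or below those of the other for a minority of genes. Between egg cells and fertilized eggs, 11 genes were higher (13.9% of all probe sets) and 9 lower (11.1%) in fertilized eggs without overlap. Of the 11 higher genes 6 were metal transporter genes, YSL7 and YSL1 among them, 2 nutrient, 2 sugar and 1 water. Of the 9 lower genes 3 were metal, 2 nutrient, 3 sugar (SUT1, SUT5 and SWEET2A) and 1 water. From fertilized egg to zygote, 5 genes were higher (6.41%) and 9 lower (6.37%), and from egg to zygote 5 were higher (13.4%) and 8 lower (8.96%). SUT1 and TIP4-1 had no overlap in any of the 3 comparisons, which was so for 1.21% of all probe sets. Over the 26 nutrient transporter genes the median log2 change from egg to zygote was 0.12, over the 17 water transporter genes -0.62, over 25 metal genes -0.21 and over 14 sugar genes 0.08, against 0.05 over all probe sets. Of the 17 water transporter genes 12 had a value below 0 in that comparison, as did 13646 of the 28597 probe sets tested. Egg replicate 2 was the brightest of the 9 arrays for 11 of these 17 genes, and its part in the count was not tested.

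**Figure D2:**
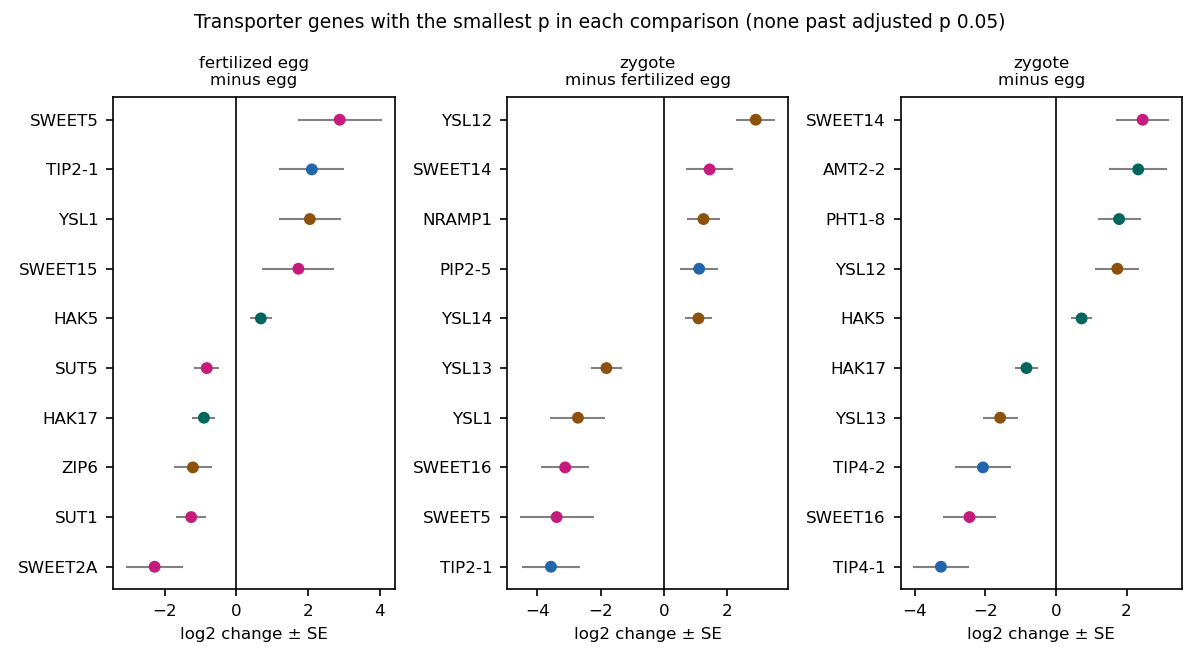
Log2 change (horizontal axis, point) with its SE (bar) of the 5 transporter genes of smallest p in each direction in the 3 comparisons, brown for metal, green for nutrient, pink for sugar and blue for water transporters. The values run from -3.57 for TIP2-1 to 2.90 for YSL12, both between fertilized egg and zygote, and none passed an adjusted p of 0.05.

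Among the metal transporter genes the smallest p was that of YSL12 (LOC4336442), a member of the family that carries metal chelates. Its signals were 2967, 5108 and 2909 in the egg cells, 2227, 1542 and 1123 in the fertilized eggs and 3334, 28852 and 17213 in the zygotes. Every fertilized egg array lay below every egg and every zygote array, but zygote replicate 1 was within the range of the egg cells while replicates 2 and 3 were far above it. The log2 change from fertilized egg to zygote was 2.90 ± 0.62 (adjusted p = 0.235) and that from egg to zygote 1.74 ± 0.62 (adjusted p = 0.251). Without zygote replicate 1 both passed, at 3.82 ± 0.39 (adjusted p = 0.00523) and 2.65 ± 0.39 (adjusted p = 0.0209). With array weights, which let noisier arrays count less, the change from egg to zygote passed (1.91 ± 0.45, adjusted p = 0.0439) and that from fertilized egg did not (2.85 ± 0.49, adjusted p = 0.116). The latter passed with array weights and the filter on the mean signal (2.95 ± 0.45, adjusted p = 0.0389) and with the ratio over all spike probe sets as a covariate (2.85, adjusted p = 0.0389). Without zygote replicate 2, in turn, the changes were 2.26 and 1.10. With the 3′ to 5′ ratio as a covariate the change from fertilized egg to zygote was 2.98.

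YSL13 (LOC4336441), which distributes iron in leaves, is the direct neighbour of YSL12 on the chromosome and ran the other way between fertilized egg and zygote. It read 3162, 1549 and 1531 in the egg cells, 2552, 2090.1 and 2290.1 in the fertilized eggs and 262, 1137 and 882 in the zygotes. All zygote arrays lay below all others, zygote replicate 1 most, and fertilized eggs lay within the egg cells' range. The change from fertilized egg to zygote was -1.81 ± 0.50 (adjusted p = 0.294), and -1.19 without zygote replicate 1. From egg to zygote it was -1.58 ± 0.50 (adjusted p = 0.222), and it turned to 1.98 (adjusted p = 0.995) with the spike ratio as a covariate. The gene on the other side of YSL12, YSL11, was below the floor.

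YSL7 (LOC4328077) and YSL1 (LOC4326360) shared extreme arrays. YSL7 gave 14159, 5704 and 5692 in the egg cells, 14484, 16758 and 92540.5 in the fertilized eggs and 175, 14164 and 16079.8 in the zygotes, a span from 175 to 92540.5 that was the widest by SD among the tested transporter genes (2.40 on the log2 scale). YSL1 gave 172, 88.8 and 119 in the egg cells, 310.3, 299 and 1774 in the fertilized eggs and 35, 25.1 and 307 in the zygotes. Both were highest on fertilized egg replicate 3, which had the highest 3′ to 5′ ratio (log2 8.62). Zygote replicate 1, which had the lowest (5.93), was lowest for YSL7, and for YSL1 only zygote replicate 2, with a ratio of 8.15, was lower still. All fertilized egg arrays still lay above all egg arrays for both. From egg to fertilized egg the changes were 1.87 ± 1.34 (adjusted p = 0.709) and 2.05 ± 0.87 (adjusted p = 0.534), and without fertilized egg replicate 3 they were 1.01 and 1.22. With the 3′ to 5′ ratio as a covariate they were 0.031 and 1.53. With the ratio over all spike probe sets as a covariate that of YSL7 passed at 8.49 ± 1.03 (adjusted p = 0.00141). From fertilized egg to zygote YSL7 read -3.01 ± 1.34 (adjusted p = 0.457), and -0.90 without zygote replicate 1. YSL1 read -2.71 ± 0.87 (adjusted p = 0.353) in that comparison, with overlapping arrays.

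**Figure D3:**
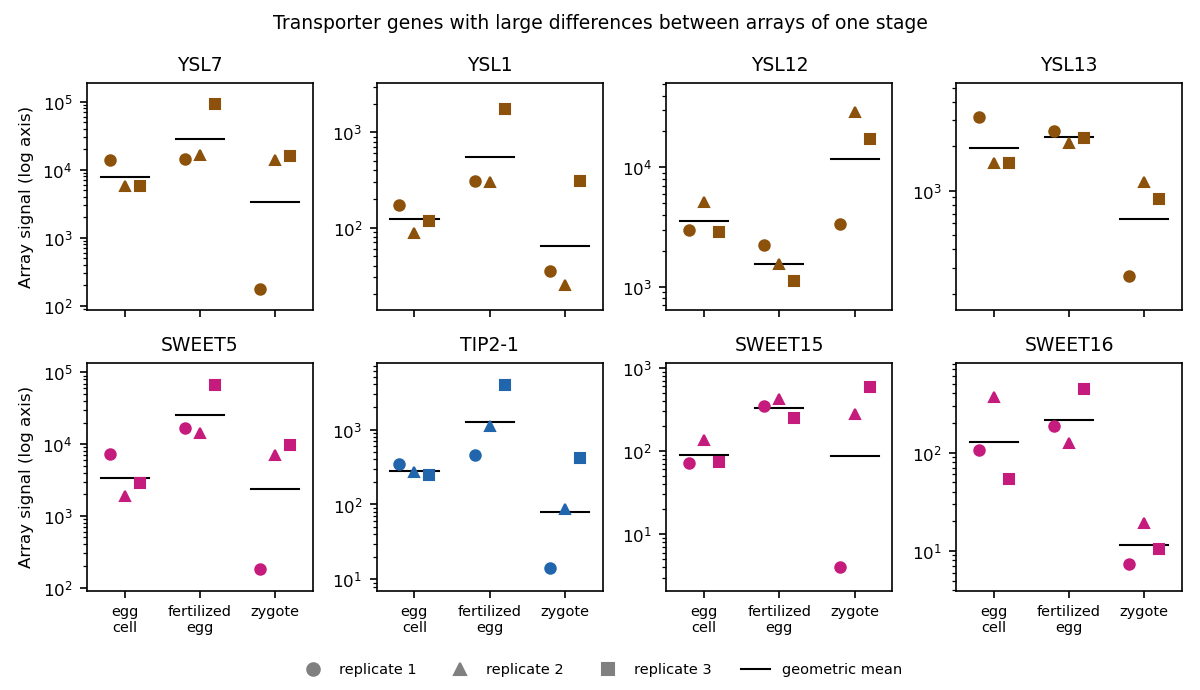
Array signal (vertical log axis) by stage (horizontal axis) for 8 transporter genes, with a symbol for each replicate and a line at the geometric mean of the 3 arrays. YSL7, YSL1, SWEET5 and TIP2-1 are highest on fertilized egg replicate 3, zygote replicate 1 is lowest for YSL7, YSL13, SWEET5, TIP2-1, SWEET15 and SWEET16, and YSL12 is highest on zygote replicates 2 and 3.

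YSL14 (LOC9267947) was brighter on every zygote array than on any earlier array, with 369, 589 and 549 in the egg cells, 355, 367 and 517 in the fertilized eggs and 633, 779 and 1405 in the zygotes. Its change from fertilized egg to zygote was 1.09 ± 0.42 (adjusted p = 0.41). YSL5 had the least spread of the tested transporter genes, between 378 and 552 over all 9 arrays. YSL6, which acts in manganese tolerance, had 2594, 2180.2 and 2087 in the egg cells, 2419, 1683 and 1349 in the fertilized eggs and 813, 1501 and 2050.3 in the zygotes, lower in every zygote than in every egg cell but overlapping with fertilized eggs.

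ZIP6 (LOC4337908), of the zinc and iron carrier family, was higher on all egg arrays than on all fertilized egg arrays, and its zygotes spanned both. It read 1196, 1670.3 and 1436 in the egg cells, 943, 482 and 484 in the fertilized eggs and 459, 2469 and 877 in the zygotes. The change from egg to fertilized egg was -1.21 ± 0.53 (adjusted p = 0.544). With array weights it passed (-1.20 ± 0.30, adjusted p = 0.0373), and with the spike ratio as a covariate it turned to 1.31 (adjusted p = 0.9997). ZIP4, a zinc transporter of shoot and root, stayed between 650.4 and 1357.

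NRAMP3 (LOC9267339), which distributes manganese at the nodes, was among the steadiest, with 2956, 2903 and 2797 in the egg cells, 3037, 3221 and 2451 in the fertilized eggs and 4165, 2278 and 1909 in the zygotes. No stage of it stood apart. NRAMP6 read 2486, 2416 and 2828 in the egg cells, 1784, 2783 and 3021 in the fertilized eggs and 2225, 1669 and 1026 in the zygotes, all zygotes below all egg cells. NRAMP1 (LOC4342862), a carrier of iron and cadmium, gave 441, 263 and 265 in the egg cells, 198, 318 and 283 in the fertilized eggs and 354, 1204 and 619.6 in the zygotes, with all zygotes above all fertilized eggs but not above all egg cells. Its change from fertilized egg to zygote was 1.25 ± 0.51 (adjusted p = 0.428), and 0.81 without zygote replicate 2. The copper pumps HMA4 and HMA5 lay between 318 and 746 and between 193 and 791, with overlap between all stages. The ferrous iron carriers IRT1 and IRT2 were below the floor, and their highest arrays, at 115 and 541, were both zygote replicate 2.

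HAK5 (LOC4326945), a potassium transporter of roots and shoots, was the brightest of the nutrient transporter genes. Its signals were 25745, 32584 and 25998 in the egg cells, 42546, 31516 and 67094 in the fertilized eggs and 41058, 41656 and 57842 in the zygotes. All zygotes lay above all egg cells, and fertilized egg replicate 2 fell among the egg cells. The log2 change was 0.68 ± 0.30 (adjusted p = 0.544) from egg to fertilized egg and 0.73 ± 0.30 (adjusted p = 0.28) from egg to zygote. Both directions flipped under quantile normalization, to -0.13 and -0.26. A second probe set assigned to HAK5 had a mean signal of only 6.6, and the values above rest on the bright one alone. The annotation of one of them may be wrong, and whether the bright one reads HAK5 was not tested.

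HAK17 (LOC4347211) of the same potassium transporter family was higher in egg cells than at any later time, with 5031, 5759 and 5868 in the egg cells, 3692, 3272 and 2121 in the fertilized eggs and 4545, 2336 and 2791 in the zygotes. No later array reached an egg array, and fertilized eggs and zygotes overlapped. The change was -0.91 ± 0.32 (adjusted p = 0.461) to the fertilized egg and -0.84 ± 0.32 (adjusted p = 0.263) to the zygote. With array weights the first of these passed (-0.78 ± 0.21, adjusted p = 0.0481). Its second probe set had the same direction at -0.43 ± 0.37 and -0.53 ± 0.37. HAK25 read 1371, 2273 and 1759 in the egg cells, 1274, 1659 and 525 in the fertilized eggs and 1278, 588 and 709.6 in the zygotes, with all zygotes below all egg cells. HAK1, a potassium uptake carrier of rice roots, ranged from 1734 to 4347 with all stages overlapping.

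PHT1-8 (LOC4348741), a phosphate transporter of rice, read 68.2, 263 and 86.7 in the egg cells, 142, 196 and 375 in the fertilized eggs and 274, 543 and 589 in the zygotes. All zygotes were above all egg cells, narrowly so for egg replicate 2, and the fertilized eggs overlapped with both. The change from egg to zygote was 1.79 ± 0.61 (adjusted p = 0.244), and its other tested probe set gave 2.09 ± 0.67. PHT1-1, which takes up phosphate in roots, gave 93, 443 and 98.9 in the egg cells, 200.2, 176 and 135 in the fertilized eggs and 200.1, 56.8 and 168 in the zygotes, and egg replicate 2 was the highest of the 9. AMT2-2 (LOC4327434), an ammonium transporter, read 50.2, 56.5 and 2.30 in the egg cells, 61.4, 46.6 and 108 in the fertilized eggs and 74.8, 571 and 180.1 in the zygotes. Every zygote was above every egg cell, most of all zygote replicate 2, and the change was 2.33 ± 0.82 (adjusted p = 0.25), or 1.62 without that array and 1.67 without egg replicate 3. Of the ammonium transporter genes AMT1-1 and AMT3-1, the arrays spanned 67.5 to 897 and 24.4 to 381 with no stage apart. The nitrate transporter gene NRT2.3 spanned 45.5 to 239, while NRT2.2 and the sodium carrier HKT1-5 were below the floor.

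SUT1 (LOC4331775), the sucrose and proton symporter of rice phloem and grain, separated all 3 stages. It read 617, 661 and 474 in the egg cells, 279, 244 and 185 in the fertilized eggs and 390.4, 313 and 442 in the zygotes. Egg cells were highest, fertilized eggs lowest and zygotes between them, with no array out of place. The change from egg to fertilized egg was -1.26 ± 0.41 (adjusted p = 0.428), that from fertilized egg to zygote 0.67 ± 0.41 (adjusted p = 0.587), and that from egg to zygote -0.59 ± 0.41 (adjusted p = 0.476). With array weights the first passed (-1.13 ± 0.29, adjusted p = 0.0421). SUT5 (LOC4329756), another sucrose transporter, gave 12014, 20692 and 9901 in the egg cells, 8641, 8863 and 5739 in the fertilized eggs and 11730.0, 6295 and 7665 in the zygotes. Fertilized eggs lay below egg cells without overlap, at -0.83 ± 0.34 (adjusted p = 0.522), and zygotes overlapped with both. SUT4 and SUT2, the latter a carrier of the vacuolar membrane, had no stage apart, with ranges of 805 to 2013 and 264 to 649.

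SWEET11 (LOC4346153) and SWEET4 (LOC4329093), which act in grain filling, were the brightest sugar transporter genes. SWEET11 read 14193, 20706 and 19904 in the egg cells, 28165, 24049 and 15824 in the fertilized eggs and 15529.6, 20629 and 41190.5 in the zygotes. SWEET4 read 14382, 23172 and 15262 in the egg cells, 23232, 16804 and 22853 in the fertilized eggs and 18742, 18014 and 20974 in the zygotes. Neither separated any pair of stages, and the 9 arrays of SWEET4 stayed within 14382 to 23232.

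SWEET5 (LOC4339772), a galactose transporter of rice, followed the same arrays as YSL7. Its signals were 7234, 1885 and 2891 in the egg cells, 16665, 14262 and 66883 in the fertilized eggs and 184, 7096 and 9844 in the zygotes. Every fertilized egg lay above every egg cell and every zygote, with fertilized egg replicate 3 highest and zygote replicate 1 lowest. The changes were 2.88 ± 1.17 (adjusted p = 0.509) and then -3.39 ± 1.17 (adjusted p = 0.376). Without fertilized egg replicate 3 the first was 2.17, and without zygote replicate 1 the second was -1.59. With the 3′ to 5′ ratio as a covariate they were 1.41 and -3.14. With the 3′ spike ratio as a covariate they were 13.39 (adjusted p = 0.9997) and -2.80 (adjusted p = 0.513), and with the ratio over all spike probe sets they passed at 8.71 (adjusted p = 0.000871) and -3.58 (adjusted p = 0.00721). As for YSL7, the change from egg to fertilized egg under either ratio cannot be told apart from the split of that ratio.

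SWEET2A (LOC4326868) read 1458, 3066 and 1997 in the egg cells, 586, 767 and 154 in the fertilized eggs and 2359, 169 and 643 in the zygotes. Fertilized eggs were below egg cells on every array, lowest on replicate 3, and zygotes ranged over both. The change from egg to fertilized egg was -2.28 ± 0.80 (adjusted p = 0.46), or -1.61 without fertilized egg replicate 3 and -1.09 with the 3′ to 5′ ratio as a covariate. With array weights it passed (-1.65 ± 0.42, adjusted p = 0.0408).

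SWEET14 (LOC4350572), a sucrose exporter that bacterial blight strains are known to induce in leaves, read 51.5, 216 and 63.6 in the egg cells, 134, 154 and 376 in the fertilized eggs and 189, 714 and 1327 in the zygotes. Zygote replicates 2 and 3 were above all egg cells, and zygote replicate 1 was below egg replicate 2. The change from egg to zygote was 2.46 ± 0.75 (adjusted p = 0.22), its second probe set gave 2.84 ± 0.97, and without zygote replicate 1 the first probe set passed at 3.22 ± 0.69 (adjusted p = 0.0424). Without zygote replicate 3 it was 1.86. It passed with array weights too (3.19 ± 0.67, adjusted p = 0.0342). SWEET16 (LOC4332795) was the reverse, with 105, 371 and 53.7 in the egg cells, 184, 125 and 441 in the fertilized eggs and 7.29, 19.2 and 10.5 in the zygotes. All zygotes were below the floor and below all other arrays, at -3.12 ± 0.75 from fertilized egg to zygote (adjusted p = 0.265) and -2.45 ± 0.75 from egg to zygote (adjusted p = 0.22), the latter being -1.76 without egg replicate 2. SWEET15, which acts with SWEET11 in the rice grain, gave 72.3, 134 and 73.5 in the egg cells, 347, 426 and 247 in the fertilized eggs and 4.05, 275 and 590.3 in the zygotes. Fertilized eggs exceeded egg cells on every array, at 1.73 ± 1.01 (adjusted p = 0.647), while zygotes ran from the lowest to the highest signal of the 9. The monosaccharide carrier MST3 spanned 11.9 to 722 and MST5 was below the floor.

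**Figure D4:**
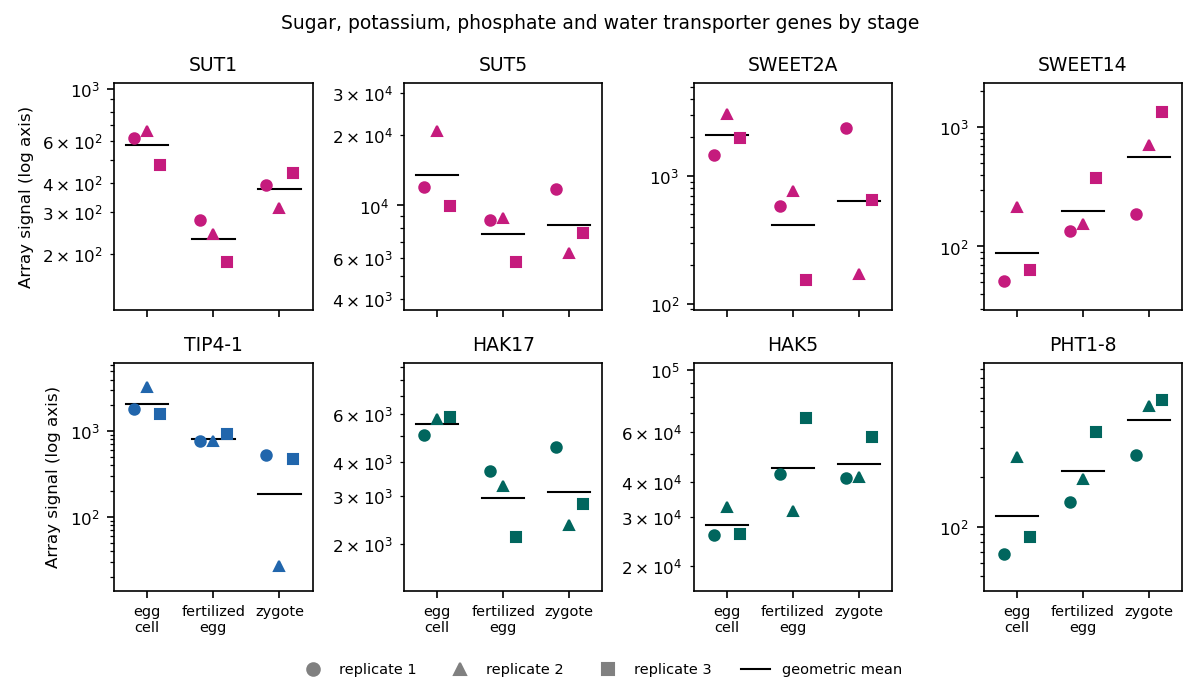
Array signal (vertical log axis) by stage (horizontal axis) for 8 sugar, potassium, phosphate and water transporter genes, with a symbol for each replicate and a line at the geometric mean of the 3 arrays. SUT1 and TIP4-1 separate all 3 stages, HAK17 is highest in egg cells, and zygote replicate 2 stands at 26.3 for TIP4-1.

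TIP4-1 (LOC4338163), an aquaporin of the vacuolar membrane, was the water transporter gene with the largest difference between egg and zygote. It read 1793, 3261 and 1583 in the egg cells, 762, 775 and 937 in the fertilized eggs and 522, 26.3 and 469.5 in the zygotes. Each stage lay wholly below the one before. The change from egg to zygote was -3.26 ± 0.78 (adjusted p = 0.172), with -1.34 ± 0.78 (adjusted p = 0.649) from egg to fertilized egg and -1.92 ± 0.78 (adjusted p = 0.43) from there to the zygote. Without zygote replicate 2 the change from egg to zygote was -2.05, and without zygote replicate 1 it passed at -3.90 ± 0.79 (adjusted p = 0.0364). With array weights it passed at -2.28 ± 0.50 (adjusted p = 0.0364). A second, dimmer probe set of the gene did not show this order, at 1.44 ± 0.96 from egg to fertilized egg and 0.42 ± 0.96 from egg to zygote. TIP4-2 read 135, 715 and 137 in the egg cells, 83.6, 137 and 127 in the fertilized eggs and 18.3, 25 and 155 in the zygotes, at -2.07 ± 0.80 from egg to zygote (adjusted p = 0.266) with zygote replicate 3 inside the egg range, and at -1.31 without egg replicate 2.

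TIP2-1 (LOC4330207) gave 347, 270.4 and 244 in the egg cells, 459, 1131 and 3878 in the fertilized eggs and 14.1, 86.4 and 417 in the zygotes. As for YSL7 and SWEET5, fertilized eggs lay above egg cells on every array, fertilized egg replicate 3 was highest and zygote replicate 1 lowest. The changes were 2.10 ± 0.91 (adjusted p = 0.539) and -3.57 ± 0.91 (adjusted p = 0.269), and 1.30 for the first without fertilized egg replicate 3. Without that array the second was -2.77, and when zygote replicate 1 was left out instead it was -2.62. With the 3′ to 5′ ratio as a covariate the changes were 1.12 and -3.40. With the 3′ spike ratio they were 5.95 (adjusted p = 0.9997) and -3.35 (adjusted p = 0.44). With the ratio over all spike probe sets as a covariate they passed at 5.89 (adjusted p = 0.0169) and -3.69 (adjusted p = 0.0147). The change from egg to fertilized egg under either spike ratio cannot be told apart from the split of that ratio. The second probe set of TIP2-1 gave 0.87 ± 0.90 and -1.26 ± 0.90. TIP1-1 (LOC4331608), also named AQP, read 11983, 22341 and 15616 in the egg cells, 15643, 11295 and 13143 in the fertilized eggs and 16363, 5451 and 10878 in the zygotes, and PIP1-2 (LOC9270874), an aquaporin of the plasma membrane, read 5618, 9723 and 6480.0 in the egg cells, 8232, 6210.1 and 7619.9 in the fertilized eggs and 5666, 2676 and 6465 in the zygotes. Both had zygote replicate 2 lowest and egg replicate 2 highest, and no stage of either stood apart. TIP2-2 read 2232, 4802 and 2489 in the egg cells, 3036, 2816 and 2749 in the fertilized eggs and 3034, 2305 and 1561 in the zygotes, with overlap between all stages. NIP1-1 stayed between 2715 and 4357 over the 9 arrays, the second smallest spread among the tested transporter genes. The silicon channel NIP2-1 ran from 2.65 to 570.1. PIP2-5 was higher in every zygote than in every fertilized egg, with 189, 909.6 and 254 in the egg cells, 100.2, 256 and 225 in the fertilized eggs and 465, 393 and 374 in the zygotes and a change of 1.12 ± 0.60 (adjusted p = 0.538). Its direct neighbour PIP2-1 read 773, 1790.2 and 1301 in the egg cells, 1387, 2554 and 2078 in the fertilized eggs and 1161, 1461 and 2173 in the zygotes, with overlap between all stages.

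Egg replicate 2 stood apart more for the transporter genes than for all tested probe sets. The latter include several per gene and some without a gene, and were not matched to the transporter genes in brightness. Egg replicate 2 was the brightest of the 9 arrays for 25 of the 82 tested genes, or 30.5%, against 7.78% of all tested probe sets. By class this was so for 11 of 17 water, 7 of 26 nutrient, 4 of 25 metal and 3 of 14 sugar transporter genes. The plasma membrane aquaporin PIP2-2 (LOC4330049) was the extreme case, with 594, 17990.0 and 711 in the egg cells, 418, 792 and 2098 in the fertilized eggs and 542, 666 and 3017 in the zygotes, so that 1 array was 25.3 times the next egg array. Egg replicate 2 exceeded both other egg arrays by more than 2-fold for 20 genes, or 24.4% (8.78% of all tested probe sets), among them TIP4-2, PHT1-1, PIP1-3, PIP2-5, AMT1-1 and NRAMP5, the root carrier of manganese and cadmium. NRAMP5 read 253, 1398 and 531 in egg cells. The ovule wall gene LTPL1 was also highest on this array, with 10654, 18358 and 13314 in egg cells, and the summed ovule wall list reached its maximum there at 32316. LTPL1 alone accounts for most of that sum. MADS58 of that list was highest among the egg arrays on replicate 2 as well (6619.9, 9721 and 7901), while MADS13 (1321, 588 and 1549), MADS29 (3297, 2832 and 3313) and MADS3 (553, 601 and 709) were not, and the part of other cells in the transporter signals of this array was not tested. Without egg replicate 2 the number of probe sets that passed over the whole array went from 12 to 18 for fertilized egg minus egg and from 20 to 0 for zygote minus egg. The fall to 0 was not particular to this array. Without egg replicate 1 the 2 numbers were 2 and 0, and without egg replicate 3 they were 1 and 0.

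**Figure D5:**
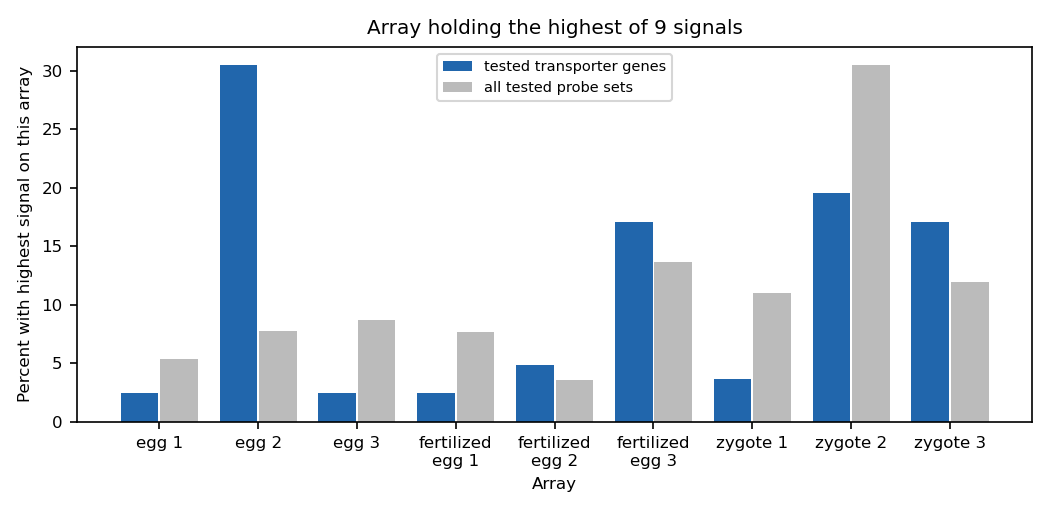
For each of the 9 arrays (horizontal axis), the percentage of the 82 tested transporter genes (blue bars) and of all tested probe sets (grey bars) whose highest signal is on that array (vertical axis, from 0). Egg replicate 2 holds 30.5% of the transporter genes and 7.78% of all probe sets, and zygote replicate 2 holds the largest grey bar.

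Genes of the same pathways that are no transporters of these families gave no calls either. For the genes of metal chelation and control 16 of 21 were tested, for nitrogen assimilation 8 of 9, for other ion channels and pumps 9 of 10, for phosphate signalling 9 of 13 and for sucrose cleavage and synthesis 11 of 17, and none passed in any comparison. Of the 11 sucrose genes, 10 were lower in zygotes than in egg cells by their log2 change, as were 13646 of the 28597 probe sets tested. The median of the 11 was -0.66 against 0.05 over all probe sets, and 3 had an unadjusted p under 0.05 (16% of all probe sets). The sucrose synthase SUS2, which splits sucrose, read 9516, 7862 and 7422 in the egg cells, 6800.1, 8011 and 5790.3 in the fertilized eggs and 7694, 4652 and 3887 in the zygotes, with overlap between neighbouring stages and a change from egg to zygote of -0.66 ± 0.30 (adjusted p = 0.303). The sucrose phosphate synthase SPS3F read 4915, 4036 and 4122 in the egg cells, 4361, 4469 and 5710.1 in the fertilized eggs and 3589.6, 2283 and 4254 in the zygotes and had no stage apart.

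The metallothionein MT2A, a small protein that binds metals, read 12789, 8163 and 8661 in the egg cells, 12571, 9218 and 14131 in the fertilized eggs and 5128, 5381 and 4516 in the zygotes. All zygotes were below all other arrays, at -1.24 ± 0.27 from fertilized egg to zygote (adjusted p = 0.256). MT2C of the same family was brightest on zygote replicate 3 and egg replicate 2 and read 11435, 30703 and 15014 in the egg cells, 11054, 8549 and 6592 in the fertilized eggs and 12089, 25990.2 and 31711 in the zygotes. The cytosolic glutamine synthetase GLN1-2, which takes ammonium into amino acids, gave 10992, 12622 and 11901 in the egg cells, 7764, 8226 and 5805 in the fertilized eggs and 5489.6, 4739 and 8252 in the zygotes, all later arrays below all egg arrays, at -0.98 ± 0.28 from egg to zygote (adjusted p = 0.211). GDH2, a glutamate dehydrogenase, showed no separation between neighbouring stages. The vacuolar potassium channel TPKA read 429.8, 625 and 611 in the egg cells, 971, 1153 and 998 in the fertilized eggs and 1229, 1047 and 1244 in the zygotes, higher on every later array than on any egg array, at 1.07 ± 0.33 from egg to zygote (adjusted p = 0.219). The cation exchanger CAX3, the galactolipid synthase MGD3 and the phosphate starvation regulator PHR1 had log2 changes of -0.59 ± 0.34, 0.38 ± 0.45 and 0.32 ± 0.32 in that comparison, none of which passed.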

How the data were processed

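The authors deposited a linear signal intensity for each probe set on each array, and the submitters' processing notes name MAS5 for it, without a version. Trimming 2% from either end gave a mean of 500.1 on every array. The intensity values were used as deposited, without detection calls or array depth, so the number of arrays limits the precision. Gene names came from the array's annotation table and the RefSeq table of ASM3414082v1, which held all 17905 genes. No genome or sequence was used here. Of the 117 transporter genes, 21 are read by a probe set of the types that can bind related transcripts (_s_at or _x_at). PHT1-8, SWEET14, HAK1, AMT3-1, PIP2-1, PIP2-2 and TIP2-1 are among them. The 2 tested probe sets of PHT1-8 differ in name only by this type, as do the 2 of SWEET14, so they may not be independent. After control probe sets were removed, log2(signal + 15) was fitted with limma 3.58.1 in R 4.3.3 (lmFit, eBayes with trend, all 9 arrays) for the 28597 probe sets at or above the median of the mean log2 value, 3 pairwise contrasts and a moderated F test. The adjustment was by Benjamini-Hochberg with a threshold of 0.05, and the fit was tested on simulated data. Replicates are labelled biological, but 1 protocol field also calls them technical. Fold changes on this scale understate those of dim genes.

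The genes, lists and tests were chosen with earlier results of these data known. Genes are named by rule: the 2 brightest of each family, the 5 smallest p in each direction and comparison, genes whose arrays do not overlap in any comparison, and the 2 brightest of each pathway list. YSL5, YSL6, YSL11, HAK1, HAK15, HAK25, NRAMP5, SUT2, PIP1-1, PIP1-3, PIP2-2, the genes set aside for a shared name, the marker genes and the neighbours of named genes fall outside it and were chosen after their values were seen. The analysis plan did not say whether the filter and the choice of the brightest probe set use the mean signal or its log2, nor which spike probe sets make the spike ratio. Both were settled, as mean log2 and as the 3′ probe sets (4 poly-A and 2 hybridization), after fits with each version had been seen. The other versions are given with the alternatives. Unrelated genes caught by the list patterns were removed after the annotation was read.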

Additional observations from a re-analysis of the deposited data

How the results depend on the processing

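The number of transporter genes past the threshold was 0 in each of the 4 tests, and remained 0 with an offset of 1 or 100, no filter, quantile normalization, no trend, the mean of a gene's probe sets, the 3′ spike ratio as a covariate, the 3′ to 5′ ratio as a covariate, the filter on the mean signal and, for the 3 contrasts, fits of only the 6 arrays compared. With array weights it was 4 for fertilized egg minus egg, 3 for zygote minus egg and 4 over the 3 stages. With array weights and the filter on the mean signal, added after seeing the data, it was 4, 6 and 8, and 1 for zygote minus fertilized egg. With the spike ratio over all spike probe sets, the version set aside after both had been seen, it was 7, 6 and 6, and 4 for zygote minus fertilized egg, so the number depends on that choice. Leaving out each array in turn gave 0 to 0 for fertilized egg minus egg, 0 to 1 for zygote minus fertilized egg, 0 to 3 for zygote minus egg and 0 to 1 over the stages, all calls coming from the fit without zygote replicate 1.

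The counts over all probe sets differed too. For fertilized egg minus egg, zygote minus egg and over the 3 stages they were 12, 20 and 18 in the fit reported, 1248, 568 and 1569 with array weights, 1317, 1938 and 2497 with weights and the filter on the mean signal (10 for zygote minus fertilized egg), 689, 646 and 591 with the ratio over all spike probe sets (234 for zygote minus fertilized egg), and 0, 0 and 0 without trend or with the 3′ spike ratio. They were 20, 28 and 28 with an offset of 100, 9, 9 and 5 under quantile normalization, and 155 and 2 with only the 6 arrays compared. An offset of 1 gave 13 for zygote minus egg, no filter gave 30 over the stages, and the 3′ to 5′ ratio gave 11 for zygote minus egg. Without 1 array they ranged from 1 to 67, 0 to 792 and 0 to 121, and from 0 to 6 for zygote minus fertilized egg.

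Of the named genes, HAK5 reversed under quantile normalization, to -0.13 for fertilized egg minus egg and -0.26 for zygote minus egg. With the 3′ spike ratio as a covariate ZIP6 reversed to 1.31 for fertilized egg minus egg and YSL13 to 1.98 for zygote minus egg. Both are changes from egg cells, which under this covariate cannot be told apart from the split of that ratio between egg arrays and all others. No other named gene changed sign in the contrast that named it under any alternative run. In zygote minus egg, a contrast that did not name them, YSL7 and SWEET5 turned to 5.27 and 5.14 with the ratio over all spike probe sets.

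Deviations from the stage means correlated between -0.22 and 0.14 for same-numbered arrays and between -0.33 and 0.30 for arrays of different numbers. Whether same-numbered arrays shared a batch was not tested. A fit with the replicate number as a block called 0 transporter genes in each test, and 8, 0, 8 and 6 probe sets in all.

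Genes below the floor were not tested, 3 arrays a stage limit the precision, and a p above the threshold does not show that a gene was alike between stages.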

Other observations

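Among the genes set aside for a shared name, the lipid kinase PIP5K, which makes a signalling phosphoinositide, read 862, 1565 and 1219 in the egg cells, 556, 1207 and 569 in the fertilized eggs and 1435, 1326 and 1123 in the zygotes. The growth-regulating transcription factor PT2, also named GRF4, read 616, 321 and 1091 in the egg cells, 209, 255 and 331 in the fertilized eggs and 780.4, 401 and 864 in the zygotes, with every zygote above every fertilized egg. PHT3 read 14.1, 6.94 and 46.1 in the egg cells, 137, 216 and 170.3 in the fertilized eggs and 79.2, 619 and 19.1 in the zygotes, with every fertilized egg above every egg cell. None of these values was tested as part of a class.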
